A study of Mus musculus with 14 samples.

Results

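The genes of respiratory complex I were followed in mouse liver, as all genes on the array whose single symbol starts with Nduf. Of 18194 genes with a single symbol, 44 met this rule, through 88 probe sets, and the probe set with the highest mean signal stood for each gene. They were 6 core subunits, 28 accessory subunits and 8 assembly factors, with Ndufa4 and Ndufa4l2 kept apart, since Ndufa4 is now counted with cytochrome c oxidase. A further 10 probe sets listed with several symbols were left out. Of the 44 genes 42 passed the filter on low signal. Ndufb4 and Ndufa4l2 did not, with signals of 52.0 ± 30.3 and 58.4 ± 58.9 (SD, n = 7) in control livers against 74.3 ± 52.8 and 127 ± 139 (SD, n = 7) in krill livers.

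Liver RNA of 14 male CBA/J mice, an inbred strain, was hybridised to Affymetrix expression arrays, with 1 mouse per array. The mice were housed singly, and their weekly ration was 84 kcal of a food based on the AIN93M formula. The 7 control mice ate it plain, and for the 7 krill mice it held krill powder, an extract of a marine crustacean. Feeding began when the mice were 2 months old and lasted 3 months, and the livers came from animals aged 5 months. Total protein and total lipid were matched between the diets, while their amino acids and fatty acids differed, so a change cannot be assigned to either. All values are linear MAS5 signals, which compare a probe set between arrays but not genes with each other.

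Complex I is the entry point of the mitochondrial respiratory chain. It takes electrons from NADH, passes them along a flavin and a row of iron-sulfur clusters to ubiquinone, and pumps protons across the inner membrane. The core subunits are those shared with bacteria and carry the chemistry. Accessory subunits surround and stabilise them, and assembly factors help to build the complex but are absent from the finished enzyme. In hepatocytes it reoxidises the NADH made by fatty acid oxidation and the Krebs cycle.

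The arrays of the diets differed in quality measures, and these values stand beside every result that follows. For actin, the 3' probe set divided by the 5' probe set averaged 2.09 ± 0.242 (SD, n = 7) on control arrays, against 2.98 ± 0.493 (SD, n = 7) on those of krill mice, with every krill array above every control array. The corresponding pyruvate carboxylase ratio ran from 4.49 to 10.7 in control and from 11.6 to 25.7 in krill arrays (exact permutation test, two-sided, p = 0.000583 for both, adjusted p = 0.00146 over 5 measures). The Gapdh ratio overlapped, at 0.751 to 0.900 in control and 0.750 to 1.69 in krill arrays (exact permutation test, two-sided, adjusted p = 0.198). Hybridisation spike-ins, added in equal amounts, lay above every control array in krill replicates 2, 4, 5 and 7, while krill replicates 1, 3 and 6 stood at 12.92 to 13.18 on the log2 scale, against 12.59 to 13.22 in control arrays. The poly-A spike-ins were at 10.87 ± 0.35 and 11.997 ± 0.89 on the log2 scale in control and krill arrays (SD, n = 7; exact permutation test, two-sided, adjusted p = 0.016), and there krill replicate 6, at 11.49, also lay above the highest control array, at 11.44. Of the hepatocyte markers 9 were tested, 5 higher and 1 lower, with Alb at 0.53, Apoa1 at 0.76 and Tat, the marker that fell, at -1.86 on the log2 scale. Hnf4a stood at -0.56 and was not called, and their summed signal ran from 375274 to 557896 in control and from 473815 to 858102 in krill arrays. Of the pancreas list 2 of 4 genes were on the array, with a summed signal of 2476 to 5009 in control and 6046 to 19065 in krill arrays, and the 1 tested, Cela1, was higher at 1.31. Of Kupffer cell and macrophage markers 2 of 6 tested were higher and 2 lower, of endothelial markers 1 of 5 higher and 1 lower, and of stellate cell markers 2 of 5 higher and 1 lower. The muscle marker Ckm was higher at 1.08, and the single tested marker of cholangiocytes, lymphocytes, fat and red cells did not pass in any of these lists. Over all genes tested 22.9% were called higher and 24.8% lower. The part of these measures in the results was not tested, and because the actin and pyruvate carboxylase ratios do not overlap, they and the diet cannot be told apart. In bulk liver, fewer cells of a type and less RNA per cell cannot be told apart either.

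Most complex I transcripts were higher on the krill diet, but the core subunits were split. Among the 42 tested genes 25 were higher, 7 lower and 10 did not pass (limma, Benjamini-Hochberg adjusted p under 0.05). Over all 11308 genes tested 47.7% were called, 22.9% higher and 24.8% lower, so the share of complex I genes called higher was above that of all genes and the share called lower was below it. The median log2 change was 0.81 for the 42 genes and 0.04 for all genes. By class, 2 of 6 core subunits rose and 3 fell, with a median of -0.34. Of 27 tested accessory subunits 18 rose and 3 fell, with a median of 0.97, and of 8 assembly factors 4 rose and 1 fell, with a median of 0.46. In 12 of the 42 genes every krill array lay above every control array, and in 2 every krill array lay below, against 6.52% and 7.61% of all genes. Each array came from another mouse, so the error behind each p-value holds animal and array differences at once.

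**Figure D1:**
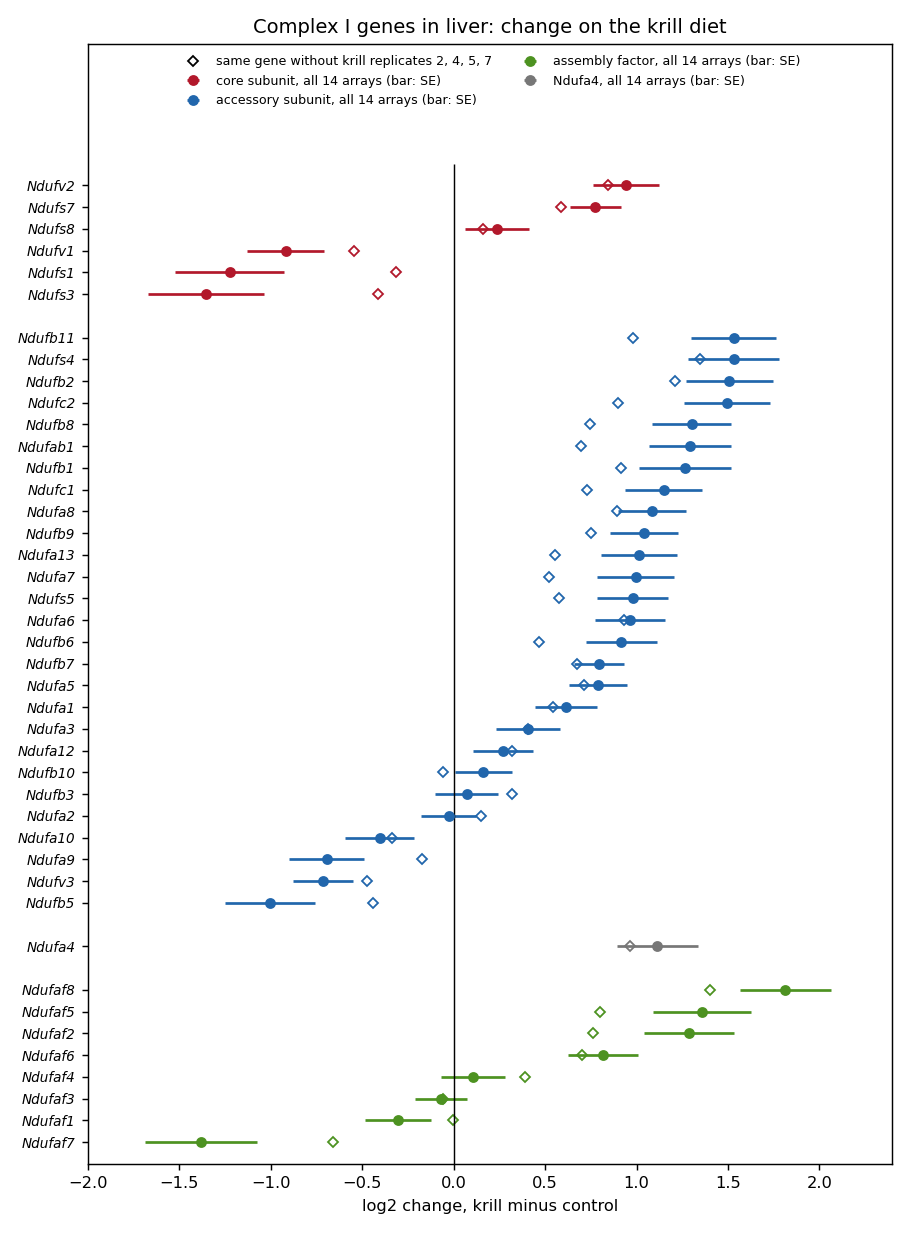
Log2 change of each tested complex I gene, krill minus control, with bars for the moderated standard error, grouped as core subunits (red), accessory subunits (blue), Ndufa4 (grey) and assembly factors (green). Open diamonds give the change without krill replicates 2, 4, 5 and 7. Most accessory subunits lie right of 0, while 3 core subunits, Ndufv1, Ndufs1 and Ndufs3, lie at -0.92, -1.23 and -1.35.

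The core subunits of the NADH-oxidising module, the tip of the matrix arm, moved apart. Ndufv1, the flavoprotein that binds NADH, had signals with a lowest value of 6052, a median of 7851 and a highest of 9022 in control livers, and of 1950, 3991 and 5927 in krill livers. Every krill array was below every control array, and the log2 change was -0.92 (SE 0.21, limma adjusted p = 0.00192), and -0.54 without krill replicates 2, 4, 5 and 7 (limma adjusted p = 0.0216). Ndufv2, the iron-sulfur partner that sits beside Ndufv1, went from a lowest, median and highest signal of 9556, 12788 and 19440 to 19406, 25467 and 34583. The lowest krill value lay just under the highest control value, and its log2 change was 0.94 (SE 0.18, limma adjusted p = 0.000484). Ndufs1, the large subunit that carries further iron-sulfur clusters, had control signals of 5140 at the lowest, 6028 at the median and 6831 at the highest. Its krill signals were 1421 to 1835 in replicates 2, 4, 5 and 7 but 3697 to 6778 in replicates 1, 3 and 6, of which replicate 1 alone reached the range of the controls. The log2 change of -1.23 (SE 0.30, limma adjusted p = 0.00286) became -0.31 without replicates 2, 4, 5 and 7, and its call ended (limma adjusted p = 0.175).

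In the ubiquinone-reducing module, at the foot of the matrix arm, Ndufs3 fell and Ndufs7 rose. Ndufs3, a scaffold subunit of this module, had control signals of 8308, 10745 and 11751 at the lowest, median and highest, and krill signals of 1546, 4076 and 9596. The krill arrays with the low values were again replicates 2, 4, 5 and 7, at 1546 to 4076, while the other krill arrays stood at 6897 to 9596, with replicate 1 alone inside the control range. The log2 change of Ndufs3 was -1.35 (SE 0.32, limma adjusted p = 0.00234), and -0.41 without those arrays, where it was still called (limma adjusted p = 0.0375). With the 3'/5' index added to the fit Ndufs3 stood at 0.07 (SE 0.59). That index did not overlap between the diets, so this fit cannot separate index from diet and shows no reversal. Ndufs7, which holds the last iron-sulfur cluster before ubiquinone, ran from 6266 over 7066 to 8286 in control and from 9986 over 11743 to 16799 in krill livers, with no overlap. Its log2 change was 0.78 (SE 0.14, limma adjusted p = 0.000299) and 0.59 without those arrays, but -0.01 with arrays scaled on their spike-ins. Ndufs8, another iron-sulfur subunit, had a log2 change of 0.24 and did not pass (limma adjusted p = 0.268), although 4 of its 6 probe sets past the filter were called higher.

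**Figure D2:**
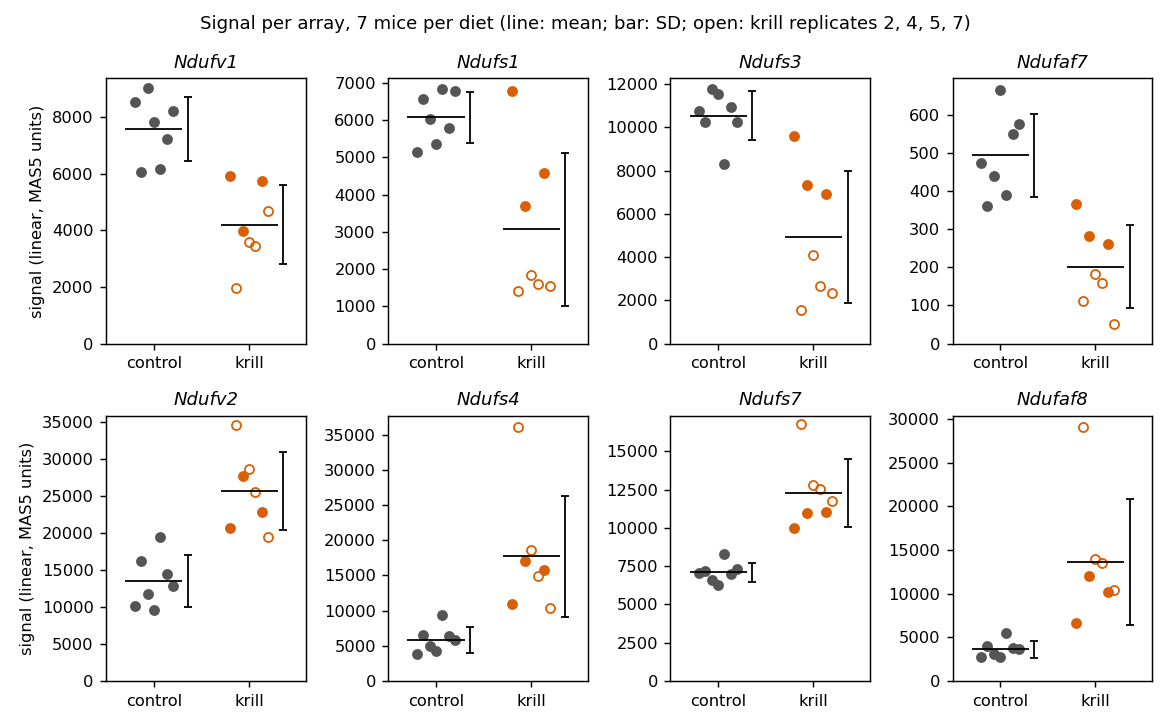
Linear MAS5 signal of 8 complex I genes on each array, 7 control (grey) and 7 krill (orange) mice, with the mean as a line and the SD as a bar; open circles are krill replicates 2, 4, 5 and 7. In the upper row (Ndufv1, Ndufs1, Ndufs3, Ndufaf7) krill arrays are lower, and in the lower row (Ndufv2, Ndufs4, Ndufs7, Ndufaf8) higher. For Ndufs1 the open circles lie at 1421 to 1835, apart from the filled ones at 3697 to 6778.

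The opposite movement was also read within each array, where a scaling common to all its probe sets cancels. A difference between arrays that acts unequally on probe sets does not cancel. Each pair sets a gene called higher over a gene called lower, so a higher ratio in krill arrays was to be foreseen. These pairs were chosen after their values were seen and carry no test. The ratio of Ndufv2 to Ndufv1 signal ran from 1.18 over a median of 1.55 to 3.14 in control arrays and from 3.48 over 6.95 to 17.7 in krill arrays. For Ndufs4 over Ndufs1, both of the NADH-oxidising module, the ratio went from 0.738, 0.856 and 1.36 at the lowest, median and highest to 1.62, 6.72 and 25.4. For Ndufs7 over Ndufs3 it went from 0.543, 0.658 and 0.997 to 1.04, 3.14 and 10.9. In all 3 pairs every krill array was above every control array. The log2 ratio differed between the diets by 1.86, 2.77 and 2.14 with all arrays, and by 1.39, 1.66 and 1.01 with krill replicates 1, 3 and 6 alone. A ratio of this kind shows that the members changed unequally, not that either stayed the same.

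**Figure D3:**
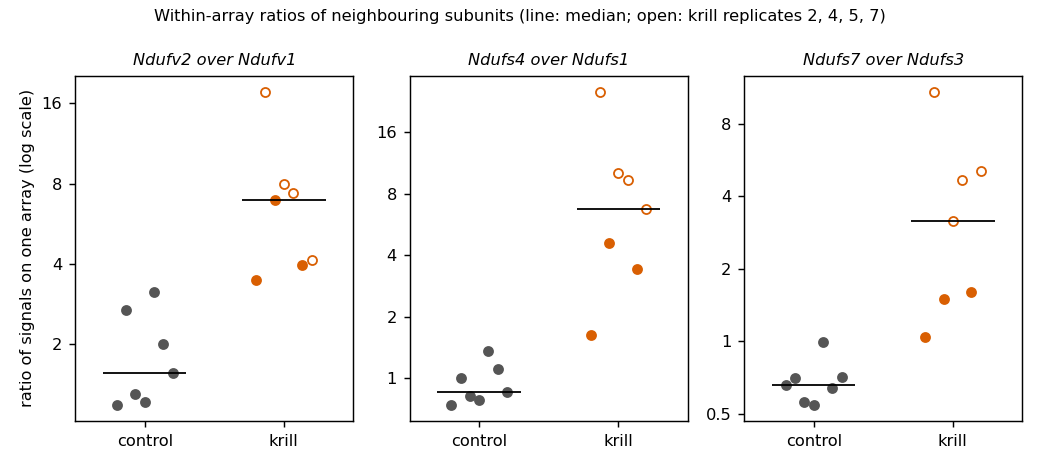
Ratio of the signals of neighbouring complex I subunits on the same array, on a log axis, for Ndufv2 over Ndufv1, Ndufs4 over Ndufs1 and Ndufs7 over Ndufs3; lines are medians and open circles are krill replicates 2, 4, 5 and 7. In each pair the 7 krill arrays lie above the 7 control arrays, and the krill medians are 6.95, 6.72 and 3.14 against 1.55, 0.856 and 0.658.

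Among accessory subunits the largest rises were in Ndufb11, Ndufs4, Ndufb2, Ndufc2, Ndufb8, Ndufab1, Ndufb1 and Ndufc1. Ndufb11, a small subunit of the membrane arm, ran from 15581 over 21803 to 34401 in control and from 35465 over 70103 to 101238 in krill livers. The groups did not overlap, the log2 change was 1.53 (SE 0.23, limma adjusted p = 7.56e-05), and its 3 probe sets gave 1.49 to 1.62. It stood at 0.98 without krill replicates 2, 4, 5 and 7. Ndufs4, a subunit of the NADH-oxidising module whose loss in mice causes a Leigh-like encephalopathy, went from a lowest, median and highest of 3793, 5794 and 9315 to 10438, 15787 and 36098. It was called at 1.53 (SE 0.25, limma adjusted p = 0.000122) and stood at 1.35 without krill replicates 2, 4, 5 and 7. Its dimmest probe set past the filter gave 0.43, and read through that one the call ended (limma adjusted p = 0.101). Ndufb2 and Ndufc2, both of the membrane arm, changed by 1.51 (SE 0.24) and 1.49 (SE 0.23), and by 1.21 and 0.90 without those arrays. The dimmest of the 3 probe sets of Ndufb2 stood at -0.29 and was not called, while all 4 probe sets of Ndufc2 were called higher, up to 2.38. Ndufb8, a membrane-arm subunit widely used as a marker of assembled complex I on protein blots, was called at 1.30 (SE 0.22) and stood at 0.75 without those arrays, while its second probe set stood at 0.09 and was not called. Ndufb1 was dim, at 185 to 378 in control and 396 to 1361 in krill livers. It changed by 1.26 (SE 0.25), with a narrow gap between the groups, and by 0.91 without those arrays. With arrays scaled on their spike-ins it stood at 0.50 and was no longer called (limma adjusted p = 0.163).

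Ndufab1, the mitochondrial acyl carrier protein, serves mitochondrial fatty acid synthesis as well as complex I. Its signal ran from 8352 over 10471 to 11975 in control and from 13250 over 28404 to 45612 in krill livers, without overlap. The log2 change was 1.29 (SE 0.22, limma adjusted p = 0.000214), and 0.70 without krill replicates 2, 4, 5 and 7. Its dimmer probe sets past the filter stood at 0.71, called higher, and 0.29, not called. Below the filter, in a fit of all probe sets, another was called lower at -1.67 (limma adjusted p = 0.00178), so the direction of Ndufab1 differed between its probe sets. The subunits that hold the carrier protein, Ndufa6 of the matrix arm and Ndufb9 of the membrane arm, were higher too, at 0.97 (SE 0.19) and 1.04 (SE 0.19). Ndufa8, Ndufb7 and Ndufs5, which face the intermembrane space and belong to the disulfide-bonded subunits, were called at 1.09 (SE 0.19), 0.79 (SE 0.14) and 0.98 (SE 0.19), while Ndufb10 of the same group stood at 0.16 and did not pass (limma adjusted p = 0.397). Ndufa13, also known as GRIM-19, a membrane-arm subunit, changed by 1.01 and Ndufc1 by 1.15. Ndufs5, Ndufa13 and Ndufc1 stood at 0.58, 0.55 and 0.73 without krill replicates 2, 4, 5 and 7, and all 3 were still called.

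The accessory subunits that fell were Ndufb5, Ndufv3 and Ndufa9. Ndufb5, of the membrane arm, went from 9889, 11171 and 13180 at the lowest, median and highest in control livers to 2565, 6120 and 11792 in krill livers, where replicates 2, 4, 5 and 7 held the low values, 2565 to 6120. Only replicate 1 of the krill arrays lay inside the control range. Ndufb5 was 2.01-fold lower (SE 0.25 on the log2 scale, limma adjusted p = 0.00323), its second probe set gave -1.37, and without those arrays the log2 change was -0.44. Ndufv3, a small subunit beside Ndufv1, changed by -0.71 (SE 0.16, limma adjusted p = 0.00192), while the fit lacking those arrays gave -0.47. As in Ndufv1, all 7 krill arrays of Ndufv3 lay below all control arrays, 4329 to 8910 against 9611 to 13624. Ndufa9, which sits where the matrix arm meets the membrane, changed by -0.69 (SE 0.21, limma adjusted p = 0.0105). Without krill replicates 2, 4, 5 and 7 it stood at -0.18 and was no longer called (limma adjusted p = 0.353). With the 3'/5' index added to the fit, which cannot separate index from diet, Ndufa9 stood at 0.02 (SE 0.41).

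Accessory subunits that did not pass were Ndufa3 at 0.40, Ndufa12 at 0.27, Ndufb10 at 0.16, Ndufb3 at 0.07, Ndufa2 at -0.03 and Ndufa10 at -0.40 (limma adjusted p from 0.0637 to 0.889). Ndufa1, called higher at 0.62 (SE 0.17), turned to -0.17 with arrays scaled on their spike-ins. Grouped by place in the complex, 14 of 19 tested membrane-arm genes rose and 1 fell, with a median of 1.01. In the NADH-oxidising module 4 of 9 rose and 3 fell, with a median of 0.27, and in the ubiquinone-reducing module 2 of 5 rose and 2 fell, with a median of 0.24. Over all genes 22.9% were called higher and 24.8% lower. Of the 6 Nduf subunits called lower 5 belong to the matrix arm, and Ndufb5 to the membrane arm. ND5, a mitochondrially encoded subunit of the membrane arm outside the Nduf list, was lower too. The other mitochondrially encoded subunits were not tested. Without krill replicates 2, 4, 5 and 7 the counts in these modules were 15 and 1 of 19, 4 and 2 of 9, and 2 and 1 of 5, and the medians 0.67, 0.32 and 0.16. Over all genes 12.8% were then called higher and 21.1% lower. Whether the modules differ was not tested. Ndufa4, the former complex I subunit, was higher at 1.11 (SE 0.22).

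Of 22 genes with several probe sets past the filter, 0 had probe sets called in both directions among those, and 12 had every probe set called the same way. All 3 probe sets of Ndufv1 were called lower, at -1.28 to -0.92, and all 3 of Ndufv2 higher, at 0.94 to 1.84, so the split between these partners did not rest on the choice of probe set. The calls did depend on array treatment. Ndufv2 lost its call with arrays centred on their medians (0.54, limma adjusted p = 0.0668) or scaled on their spike-ins (0.15, limma adjusted p = 0.653), where Ndufv1 kept its own. With the spike-in level in the fit Ndufv1 lost its call (-0.46, limma adjusted p = 0.18) and Ndufv2 kept its own. Over the 81 probe sets of the tested genes 50 were called higher and 10 lower (limma adjusted over all probe sets past the filter). The share of all probe sets called in that fit was not counted, so these counts have no background of their own. In the fit with 1 probe set per gene 22.9% of all genes were higher and 24.8% lower.

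The assembly factors ranged from the largest rise to the largest fall among the complex I genes. Ndufaf8, which works with Ndufaf5, ran from 2693 over 3644 to 5495 in control and from 6616 over 12064 to 29046 in krill livers, with no overlap. It was called at 1.81 (SE 0.25, limma adjusted p = 4.24e-05), 3.52-fold higher, and stood at 1.40 without krill replicates 2, 4, 5 and 7. Ndufaf5, an enzyme that hydroxylates an arginine of Ndufs7, went from 183, 243 and 342 at the lowest, median and highest to 231, 818 and 996. Its change was 1.36 on the log2 scale (SE 0.27, limma adjusted p = 0.000615). Its lowest krill value, in replicate 1, fell among the controls, and without replicates 2, 4, 5 and 7 the change was 0.80. Ndufaf2, a late-acting relative of Ndufa12, and Ndufaf6, which acts early, changed by 1.29 (SE 0.25) and 0.82 (SE 0.19), and by 0.76 and 0.70 without those arrays.

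Ndufaf7, a protein arginine methyltransferase of the matrix, was lower at -1.38 (SE 0.31, limma adjusted p = 0.00151), 2.61-fold. Its signal ran from 361 over 473 to 664 in control and from 51.1 over 181 to 367 in krill livers, overlapping only through krill replicate 1. Replicates 2, 4, 5 and 7 held the lowest values, and without them the change was -0.66 (limma adjusted p = 0.0222). Ndufaf3 and Ndufaf4, which act together in building the ubiquinone-reducing module, had log2 changes of -0.07 and 0.11, and Ndufaf1, a partner of Acad9 and Ecsit in building the membrane arm, one of -0.30. None of these 3 passed (limma adjusted p from 0.169 to 0.709).

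Of 11 assembly factors with other symbols 10 were tested. Of these 1 rose and 3 fell, and 6 missed the threshold, against 22.9% of all genes called higher and 24.8% lower. Tmem70, which serves complex I and ATP synthase, rose from 1987 ± 260 to 3406 ± 491 (SD, n = 7 each), by 0.77 on the log2 scale (SE 0.15). Dmac2, Acad9 and Tmem186, the last 2 of them members of the assembly complex for the membrane arm, were lower at -2.22 (SE 0.51), -1.45 (SE 0.34) and -1.08 (SE 0.42). They stood at -0.90, -0.52 and -0.25 without krill replicates 2, 4, 5 and 7, and Tmem186 was no longer called (limma adjusted p = 0.454). Of the mitochondrially encoded subunits 1 was listed and tested, ND5, which forms the far end of the proton-pumping arm. Its signal fell from 64730 ± 15178 to 33168 ± 14271 (SD, n = 7 each). The change was -1.03 on the log2 scale (SE 0.23, limma adjusted p = 0.00152), and at -0.66 without those arrays it no longer passed (limma adjusted p = 0.0555).

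The other respiratory complexes are given by counts for comparison, and whether they differ from complex I was not tested. In complex II 1 of 4 genes rose and 3 fell, with Sdhb, the iron-sulfur subunit, at 1.40 (0.88 without krill replicates 2, 4, 5 and 7) and Sdha, the flavoprotein, at -0.82. In complex III 3 of 9 rose and 1 fell, with a median of 0.15, in complex IV 10 of 15 rose and 1 fell, with a median of 0.91, and in complex V 10 of 17 rose and 1 fell, with a median of 0.58. Over all genes tested 22.9% were called higher and 24.8% lower. Of the complex IV genes that rose, Cox6a2, Cox6b2, Cox7a1 and Cox8c were dim, with mean control signals of 87.3, 80.7, 105 and 428. Without krill replicates 2, 4, 5 and 7 complex II had 1 rise and 1 fall, complex III 3 rises and no fall, complex IV 4 rises and 1 fall among 14 genes, with a median of 0.33, and complex V 10 rises and 1 fall. Over all genes 12.8% were called higher and 21.1% lower in that fit. Of the dim complex IV genes Cox6b2 was not tested there, and Cox6a2, Cox7a1 and Cox8c were not called. Among regulators of respiratory genes Tfam, which maintains mitochondrial DNA, rose by 1.36 on the log2 scale (SE 0.20), while the coactivators Ppargc1a and Ppargc1b changed by -0.81 (SE 0.21) and -2.29 (SE 0.37). Gabpb1, a partner of the ETS factor Gabpa, changed by -0.96 (SE 0.30) and stood at 0.03 without those arrays, and Nrf1, Gabpa, Esrra and Yy1 did not pass. Of 12 tested genes of mitochondrial content outside the chain 2 rose and 4 fell, with a median of 0.02; Tomm20, an import receptor, was at 1.61, or 0.87 without those arrays, and Mdh2, of the Krebs cycle, at -1.61.

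Many respiratory genes carry binding motifs of NRF1 and of ETS factors such as Gabpa near their start, so promoter windows of genes that rose and that fell were searched. RefSeq windows of assembly GRCm38.p6, from 250 bases before to 50 after the start, were matched for 39 of the 44 genes. The NRF1 letters were GCGCA and GCGC with a base of any kind between them, on either strand. They stood in 7 of 39 complex I genes (17.9%) and in 5.19% of all 27025 genes with a RefSeq window. This background holds genes that were not on the array or did not pass the signal filter. Genes of like signal were not searched apart, so the shares do not show an excess particular to complex I. Of the 23 matched genes called higher 5 held them, Ndufa5, Ndufa6, Ndufa8, Ndufaf5 and Ndufs5, and of the 6 matched genes called lower 0 did. With only 6 genes called lower, this does not set the directions apart. The ETS letters CCGGAAG stood in 6 of 39 (15.4%) against 9.93%, among them Ndufs3, which fell, and Ndufaf8, Ndufb6 and Ndufb7, which rose. The YY1 letters AAGATGGCG stood in 5 of 39 (12.8%) against 1.64%, in 4 genes called higher and in Ndufa9, called lower. The ERR letters TCAAGGTCA stood in 0 of 39 against 0.466%. No matches overlapped each other. A match is a description of the sequence and not evidence of binding.

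The 150 bases before the start are shown for a gene that fell and for genes that rose with a match in this stretch, with the matched letters in capitals. Ndufs3 (minus strand, chr2:90904722-90904871) fell, and Ndufa8 (minus strand, chr2:36049339-36049488), Ndufb7 (plus strand, chr8:83566608-83566757) and Ndufaf8 (plus strand, chr11:120098784-120098933) rose.
Ndufs3: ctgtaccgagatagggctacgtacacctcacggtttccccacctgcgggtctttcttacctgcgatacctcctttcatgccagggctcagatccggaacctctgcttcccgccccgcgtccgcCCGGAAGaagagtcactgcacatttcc
Ndufa8: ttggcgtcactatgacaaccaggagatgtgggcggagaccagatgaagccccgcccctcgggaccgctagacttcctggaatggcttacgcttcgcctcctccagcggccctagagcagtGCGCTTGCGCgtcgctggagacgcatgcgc
Ndufb7: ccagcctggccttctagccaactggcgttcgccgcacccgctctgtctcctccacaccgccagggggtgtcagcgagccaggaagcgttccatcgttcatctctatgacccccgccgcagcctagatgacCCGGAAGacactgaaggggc
Ndufaf8: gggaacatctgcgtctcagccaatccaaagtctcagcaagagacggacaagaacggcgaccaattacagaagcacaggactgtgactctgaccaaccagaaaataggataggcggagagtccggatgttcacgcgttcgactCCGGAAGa
The capitals are the ETS letters in Ndufs3, Ndufb7 and Ndufaf8, starting 27, 20 and 8 bases before the start, and the NRF1 letters in Ndufa8, starting 30 bases before it. The same ETS letters thus stand close to the start of a gene that fell and of genes that rose.

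The counts moved with how the arrays were treated. Without krill replicates 2, 4, 5 and 7 all 25 genes called higher were still called, Ndufa3 joined them, and 5 of the 7 called lower were still called, against 12.8% and 21.1% of all genes higher and lower. The 3'/5' ratios of the krill arrays that remained were 2.48 to 3.01 for actin and 11.6 to 25.7 for pyruvate carboxylase, above every control array. Centring arrays on their medians shifted the median of all genes to -0.36, and 18 complex I genes were called higher and 8 lower, against 8.87% and 32.9% of all genes. Scaling on the spike-ins shifted it to -0.72, and 7 were called higher and 12 lower, against 2.9% and 48.6%. Centring and spike-in scaling move all genes of an array alike, so a median taken relative to that of all genes can hardly change with them, and it shows nothing of stability there. On the deposited scale this relative median was 0.92 for accessory and -0.38 for core subunits. Without krill replicates 2, 4, 5 and 7 it was 0.64 and -0.01, with quantile normalization 0.54 and -0.55, with the spike-in covariate 0.60 and 0.04, and with the 3'/5' covariate 0.70 and 0.29. The accessory value thus stayed above 0 in these 4 fits, while the core value ran from -0.55 to 0.29 and was above 0 with either covariate. On the deposited scale the core median falls between Ndufv1 at -0.92 and Ndufs8 at 0.24, so its sign stands for no gene. With the spike-in covariate Ndufv1, Ndufs3 and Ndufs1 stood at -0.46, -0.31 and -0.24, not called. Ndufs8, Ndufs7 and Ndufv2 stood at 0.18, 0.58 and 0.81 there.

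With the spike-in level as a covariate 17 of the 25 were still called higher and 0 of the 7 lower (limma, against 6.99% and 10.5% of all genes), and at an unadjusted p under 0.05 25 genes were higher and 1 lower, against 13.1% and 18.8% of all genes at that p. With the 3'/5' index as a covariate 0 of 42 complex I genes and 0 of 11308 genes (0%) were called by limma, while at an unadjusted p under 0.05 10 complex I genes were higher and 0 lower, against 5.53% and 11% of all genes. The index did not overlap between the diets, so this fit cannot separate them and its changes are imprecise. The SE of Ndufs3, for one, went from 0.32 to 0.59, so the lack of calls does not show a lack of change. The core median was -0.03 in the first of these fits and 0.25 in the second, and the accessory median 0.54 and 0.66.

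**Figure D4:**
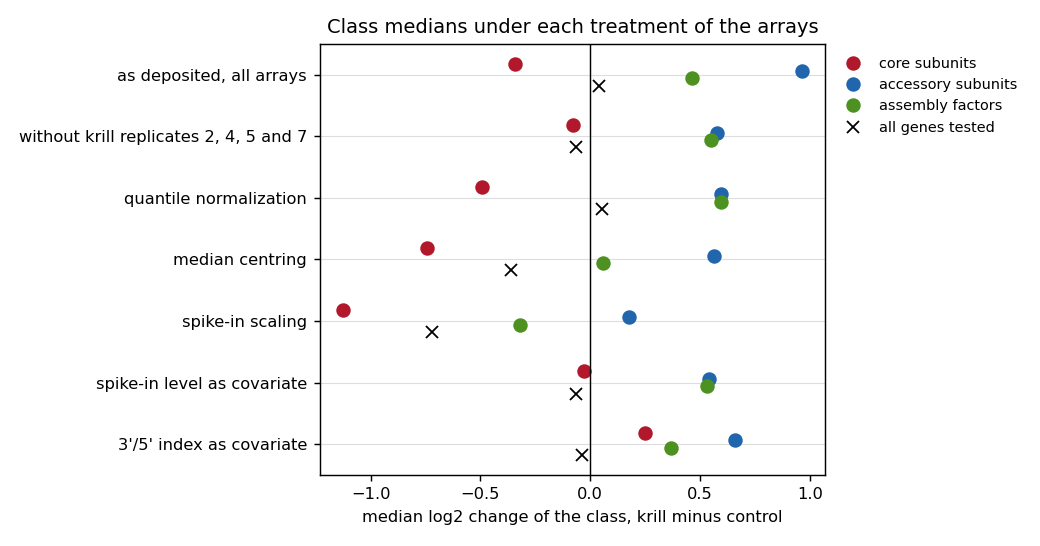
Median log2 change, krill minus control, of core subunits (red), accessory subunits (blue), assembly factors (green) and all genes tested (crosses), for 7 treatments of the arrays in rows; points are set apart vertically only to keep them visible. The accessory median lies above the median of all genes in every row, but median centring and spike-in scaling can hardly change this distance. The core median runs from -1.13 with spike-in scaling to 0.25 with the 3'/5' index added to the fit.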

How the data were processed

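The deposited table held linear signal intensity for 45101 probe sets on 14 arrays. The intensity values were made with MAS5, per the submitters' processing notes (version not given in the sources used here), and every array had the same mean after removal of the lowest and highest 2% of probe sets. Detection calls are not used here. Values were transformed to log2(signal + 16), which understates the folds of dim genes. Of 45037 probe sets other than controls, the 50% with the higher mean (22518) were kept, and the highest-mean probe set stood for each of 11308 genes. The diets were compared on all arrays by limma 3.58.1 (R 4.3.3; eBayes with trend, no covariate), with Benjamini-Hochberg adjustment and a threshold of 0.05. Log2 changes are krill minus control.

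The members, lists, alternatives and the rule for named genes were chosen with earlier results of these data known. The rule names all core subunits and assembly factors, the 8 largest rises and all called falls among accessory subunits, genes whose direction turns, and called genes of other complex I lists. Values of other genes named here were chosen after they were seen. Promoter windows came from RefSeq, and the motifs and printed promoters were also chosen after values were seen. The 3'/5' index averages the log2 ratios of actin and of pyruvate carboxylase. Tested on simulated data for this comparison, with 11308 independent genes, limma called 55 of 100 genes given a log2 change of 1, 91 of 100 given one of 2, and 5 of 11108 given none. The simulation gave each gene the same spread in both diets, held no array differences and changed far fewer genes than were called here. Its counts therefore need not hold for these arrays. Alternatives were other scalings, pseudocounts, filters and probe set rules, array weights, a replicate block, the spike-in level or 3'/5' index as covariate, and arrays left out. Same-numbered arrays of the diets shared only a number. Python 3.11.15, scipy 1.17.1 and matplotlib 3.10.9 were used.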

Additional observations from a re-analysis of the deposited data

Results flagged for a closer look

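In 94 sets of 7 arrays, 7 had a single array apart from the others by Dixon's criterion, the gap to the next array over the whole range, and chance alone marks about 1 in 20 such groups. Krill replicate 7 was low for Ndufa10 (4094, the next array at 6978), Ndufaf1 (760, next 1330) and Ndufb3 (3499, next 5842). Krill replicate 1 was low for Ndufaf5 (231, next 541). Control replicate 5 was high for Ndufa2 (12932, next 10184) and low for Ndufs3 (8308, next 10226), and control replicate 7 was low for Ndufb10 (8901, next 9742). Of these genes Ndufs3 and Ndufaf5 were called.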

How the results depend on the processing

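With an array left out in turn, 25 to 27 complex I genes were called higher and 7 to 8 lower, and the medians ran from -0.38 to -0.29 (core), 0.84 to 1.03 (accessory) and 0.39 to 0.55 (assembly). The replicate block gave 25 and 7 and changed no call; the numbers pair no mice, with correlations of same-numbered arrays from -0.0286 to 0.105. The pseudocount, the signal filter and the trend changed no call.

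Core medians were -0.74 with median centring, -1.13 with spike-in scaling, -0.6717 with the lowest-mean probe set, -0.0263 with the spike-in covariate, 0.25 with the 3'/5' covariate and -0.0769 without krill replicates 2, 4, 5 and 7. In the same order the accessory medians were 0.56, 0.18, 0.62, 0.54, 0.66 and 0.58, and 0.60 with quantile normalization. Assembly medians were 0.0602 with median centring and -0.32 with spike-in scaling. Counts were 7 higher and 12 lower with spike-in scaling, 0 lower with the spike-in covariate, and 0 and 0 with the 3'/5' covariate (limma; unadjusted counts stand above). The causes were not tested.

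With the lowest-mean probe set 20 of the 25 genes were still called higher, all but Ndufa5, Ndufab1, Ndufb2, Ndufb8 and Ndufs4. Signs turned for single genes. With spike-in scaling Ndufa1 stood at -0.17, Ndufa3 at -0.38, Ndufa12 at -0.52, Ndufaf4 at -0.68, Ndufb3 at -0.71, Ndufb10 at -0.63, Ndufs7 at -0.0125 and Ndufs8 at -0.55. With median centring Ndufa12 stood at -0.13, Ndufaf4 at -0.29, Ndufb3 at -0.33, Ndufb10 at -0.24 and Ndufs8 at -0.17. With quantile normalization Ndufaf3 stood at 0.13, Ndufb10 at -0.031 and Ndufs8 at -0.0483. With the 3'/5' covariate Ndufa2 stood at 0.15, Ndufa9 at 0.0167, Ndufaf1 at 0.28, Ndufaf3 at 0.24, Ndufb10 at -0.0094 and Ndufs3 at 0.0671. That covariate cannot be separated from diet, so these signs show no reversal. With the spike-in covariate Ndufa2 stood at 0.14, Ndufaf1 at 0.0409 and Ndufb10 at -0.0775. The lowest-mean probe set gave Ndufaf4 -0.0683, Ndufb2 -0.29 and Ndufs8 -0.12, and array weights gave Ndufa2 0.0159. Without krill replicates 2, 4, 5 and 7 Ndufa2 stood at 0.15 and Ndufb10 at -0.0593. With an array left out Ndufa2 ran from -0.0756 to 0.0442, turning without control replicate 5, krill replicate 5 or krill replicate 7, and without krill replicate 7 Ndufaf3 reached 0.0021.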
